A study of Mus musculus with 12 samples.

Results

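The mitochondrial genome transcripts are the genes whose symbol starts with mt-, that is, the genes read from the mitochondrial DNA itself. They were taken by name from the table of counts, and 37 of its 47643 genes belonged to them: 13 protein genes, 2 ribosomal RNA (rRNA) genes and 22 transfer RNA (tRNA) genes. All 37 lie on the mitochondrial chromosome of GRCm38. The annotation places 28 of them on the plus strand, with 12 of the protein genes, both rRNA genes and 14 tRNA genes, and 9 on the minus strand, which are mt-Nd6 and 8 tRNA genes. Of the 37, 20 passed the filter on low counts, namely all protein and rRNA genes and 5 tRNA genes.

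Bulk RNA-seq. was performed on osteoclasts grown for 3 days from bone marrow-derived monocytes (BMMs) of wild-type BALB/c mice in medium with M-CSF and RANKL. One group was left unstimulated (OCsCtr). The other two received, from day 0 and for 48 h, either eosinophils at 2 per BMM (OCsEo) or eosinophil supernatant at a 1:2 dilution (OCsEoS), before washing and fresh medium. The eosinophils were sorted and pooled from blood and marrow of IL-5tg/4get mice, which carry an IL-5 transgene and a GFP reporter of IL-4, so they came from animals with a lasting excess of IL-5. Each group held 4 libraries, called biological replicates in the study's methods; the age of the mice that gave these cells was not given in the sources used here. The 12 libraries held 27837530 to 40327869 counts. Osteoclast markers were present in every library, and the 10 markers summed to 28336 to 34435 CPM (counts scaled to the total of the library) in OCsCtr, 18130 to 23215 in OCsEo and 14979 to 22178 in OCsEoS. In bulk samples, a lower level cannot be told apart between fewer cells of a type and less RNA per cell.

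Mitochondrial DNA is a small circle that codes for core subunits of the respiratory chain and for the rRNAs and tRNAs used to translate them inside the organelle. Both of its strands are copied by the polymerase Polrmt with Tfam and Tfb2m into long RNAs, which are cut at the tRNAs into single messages. The genes annotated on the plus strand come from the transcript of the heavy strand, while mt-Nd6 and the minus-strand tRNAs come from that of the light strand. Nuclear proteins such as Lrpprc then stabilise the messages. Osteoclasts are rich in mitochondria, and the coactivator Ppargc1b is known for driving mitochondrial biogenesis during their differentiation.

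The only protein gene of the minus strand, mt-Nd6, carried the clearest difference, and its sequence is shown because it shares bases with a gene of the other strand. It spans chrM:13552-14070 and ends inside its plus-strand neighbour mt-Nd5, with which it shares 14 bases. The last 60 bases of both genes, from the GENCODE vM21 transcripts of GRCm38, are shown in the direction of each gene with the shared bases in capitals, at chrM:13506-13565 on the plus strand and chrM:13552-13611 on the minus strand.
mt-Nd5: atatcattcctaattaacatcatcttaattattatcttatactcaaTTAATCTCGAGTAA
mt-Nd6: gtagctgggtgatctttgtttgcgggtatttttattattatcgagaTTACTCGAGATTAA
The kit was not stated to mark strand, so plus-strand RNA over the other bases of mt-Nd6 cannot be told apart from mt-Nd6 itself. The base composition of the genes differed by strand as well. mt-Nd6 held 28.1% G and 5.97% C, whereas the 12 plus-strand protein genes held 5.88% to 16.1% G and 22.1% to 30.0% C.

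Counts on mitochondrial genes made up 0.487% to 1.43% of a library, and the groups were not separated in this share beyond their spread. The share was 1.43%, 0.640%, 0.689% and 0.487% of all counts in OCsCtr, 0.529%, 0.600%, 0.515% and 0.538% in OCsEo, and 0.505%, 0.507%, 0.625% and 0.898% in OCsEoS. Library 1 of OCsCtr and library 4 of OCsEoS stood above the rest of their groups, and the ranges of the 3 groups overlapped. The 95% Wilson intervals of the single shares were at most 0.00440 percentage points wide on either side, so counting error was small beside the spread; these intervals cover counting error only. The means were 0.812% ± 0.423 in OCsCtr, 0.546% ± 0.0373 in OCsEo and 0.634% ± 0.185 in OCsEoS (SD, n = 4). The difference in the mean log2 share was -0.45 for OCsEo against OCsCtr (exact two-sided permutation test, p = 0.2), -0.27 for OCsEoS against OCsCtr (p = 0.6, exact) and 0.18 for OCsEoS against OCsEo (p = 0.629, exact), where 70 splits of 8 libraries allow no p below 0.0286. Without library 1 of OCsCtr, the OCsEo difference shrank to -0.14 (exact permutation p = 0.371) and that of OCsEoS turned to 0.04 (p = 0.8, exact). Without library 4 of OCsEoS, the difference of OCsEoS from OCsCtr was -0.46 (exact permutation p = 0.343). With both libraries left out, tried once the data had been seen, the latter difference was -0.14 (exact permutation p = 0.6).

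**Figure D1:**
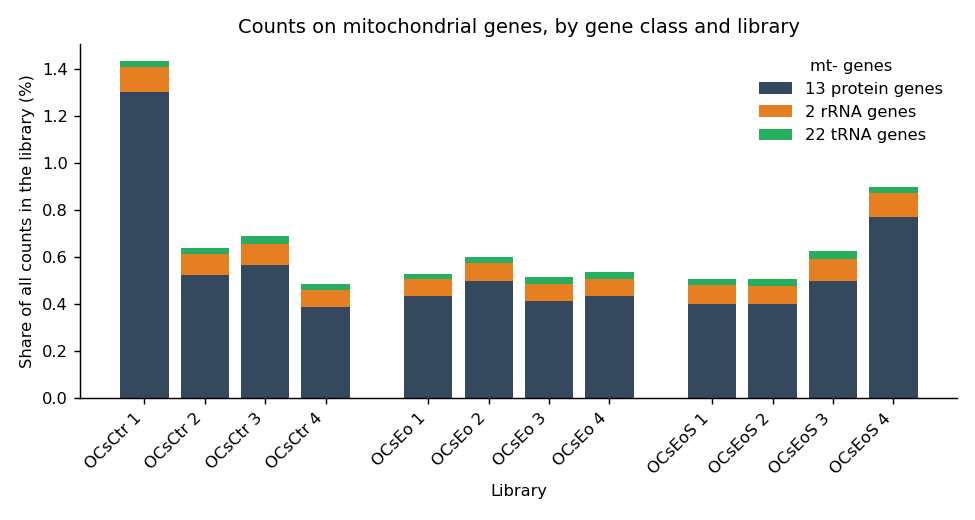
Share of all counts (%) on mitochondrial genes in each of the 12 libraries, stacked by gene class. OCsCtr 1 reaches 1.43% and OCsEoS 4 reaches 0.898%, while the other 10 libraries lie between 0.487% and 0.689%.

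Within single genes, the excess of these libraries was mostly on genes annotated on the plus strand. OCsCtr 1 was the highest library of its group for 14 of the 16 plus-strand genes tested and for 1 of the 4 minus-strand genes. OCsEoS 4 was the highest of its group for 12 of 16 and for 0 of 4. Over the 20 genes, OCsCtr 1 stood at a median of 1.70 times the median of the other 3 libraries of its group and OCsEoS 4 at 1.43 times. In OCsCtr 1 it was 5.06 times for mt-Tl1 and 4.64 times for mt-Nd4l, both on few counts, 3.22 times for mt-Nd4 and 2.93 times for mt-Cytb, but 1.14 times for mt-Rnr1, 0.870 times for mt-Co3 and 0.926 times for mt-Tp. On the minus strand, mt-Nd6 stood at 1.63 times in OCsCtr 1 and 0.972 times in OCsEoS 4. No label ties these libraries to a batch. The osteoclast markers summed to 28336 CPM in OCsCtr 1 and 14979 CPM in OCsEoS 4, the lowest sum of each group. A link between these sums and the mitochondrial counts was not tested.

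In unstimulated osteoclasts, mt-Co1, the catalytic subunit of complex IV, was the most abundant message, at a mean of 32.6% ± 3.48 (SD, n = 4) of all mitochondrial counts. mt-Nd1, of complex I, followed with 18.1% ± 0.470 and mt-Cytb, the only subunit of complex III encoded here, with 14.0% ± 2.35. Per length, mt-Co1 stood at 1763 CPM per kb, mt-Nd1 at 1528 and mt-Cytb at 1047, and their ranges over the OCsCtr libraries overlapped. The rRNA genes lay lower, with mt-Rnr1 at 435 and mt-Rnr2 at 305 CPM per kb. The lowest protein messages were mt-Nd4l at 3.05, mt-Atp8 at 5.76, mt-Co2 at 27.1 and mt-Nd3 at 32.8 CPM per kb. Of these, mt-Nd4l, mt-Co2 and mt-Nd3 have near-identical copies on chromosome 1, which are taken up after the comparisons. Only annotated transcripts were searched, so a copy of mt-Atp8 outside them would have been missed. Among the tRNA genes, mt-Tp for proline was at 3111 CPM per kb, mt-Tn for asparagine at 647 and mt-Tc for cysteine at 294, all of them on the minus strand. Of the other 19 tRNA genes, 11 had 0 counts in every library, which allows up to 3 counts, or 0.0744 to 0.108 CPM, in each, and mt-Tl1 and mt-Tw passed the filter at means of 0.531 and 0.324 CPM in OCsCtr. The 6 that remained did not pass it, and the highest value among them was 0.324 CPM, for mt-Ta in OCsCtr 3.

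**Figure D2:**
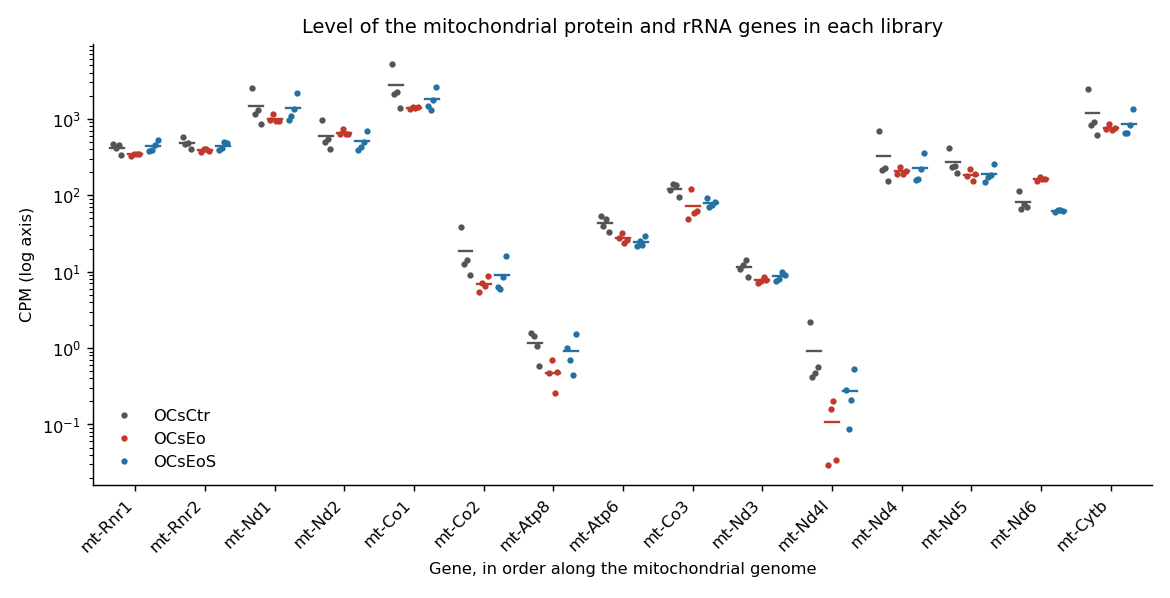
CPM (log axis) of the 2 rRNA and 13 protein genes in order along the mitochondrial genome. Points are the 4 libraries of each group and bars their mean. mt-Nd6 is separated between OCsEo (155 to 174 CPM) and both other groups (61.1 to 114 CPM), whereas most other genes overlap and OCsCtr 1 is often the highest point.

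mt-Nd6, a membrane subunit of complex I, was higher in the cultures given eosinophils than in unstimulated ones, and not in those given the supernatant. Its CPM were 114, 66.6, 77.3 and 70.2 in OCsCtr, 155, 174, 161 and 163 in OCsEo, and 61.1, 63.7, 63.3 and 61.5 in OCsEoS. Every OCsEo library was above every other library. Every OCsEoS library was below every OCsCtr library, as in 13.1% of all genes. The level went from 82.1 ± 21.9 to 163 ± 7.96 CPM (SD, n = 4), a fitted log2 fold change of 0.99 (SE 0.116, adjusted p = 9.62e-06, edgeR quasi-likelihood test with Benjamini-Hochberg adjustment over 13681 genes). A call required an adjusted p below 0.05 together with a log2 fold change beyond 0.5 in either direction, and by this rule 8 of the 20 mitochondrial genes were called in OCsEo against OCsCtr, beside 5.88% of all genes. Only 1 of the 8, mt-Nd6, was higher, beside 3.27% of all genes, and it was also the only one of the 20 whose OCsEo libraries were all above the controls, as in 10.5% of all genes. With the supernatant the log2 fold change was -0.40 (SE 0.116, adjusted p = 0.0181, edgeR), which did not reach the fold threshold.

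The difference between the stimulated groups was tested directly. mt-Nd6 was lower in OCsEoS than in OCsEo by a log2 fold change of -1.39 (SE 0.117, adjusted p = 3.09e-06, edgeR), and it was the only mitochondrial gene called between them, where 0.38% of all genes were called, 0.307% lower and 0.0731% higher. The 2 groups were separated without overlap for mt-Nd6, as 3.06% of all genes were in this direction, and in the other direction for mt-Rnr1, beside 2.41%. Leaving out any 1 library kept this value between -1.42 and -1.36 and that of OCsEo against OCsCtr between 0.91 and 1.19. Per length, the gene rose from 158 to 315 CPM per kb, while mt-Nd5 on the other strand stood at 150 and 101. The ratio of mt-Nd6 to mt-Nd5 counts was 0.307 ± 0.0385 in OCsCtr, 0.897 ± 0.102 in OCsEo and 0.340 ± 0.0732 in OCsEoS (SD, n = 4).

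Markers of carried-over cells were measured beside mt-Nd6. The 9 eosinophil markers summed to 56.4 to 73.4 CPM in OCsCtr, 53.8 to 65.5 in OCsEo and 48.6 to 54.4 in OCsEoS, most of it Ccr3, at 45.6 to 65.6 CPM in all 12 libraries. Of the 4 that could be tested, 1 was called in OCsEo against OCsCtr, beside 3.27% of all genes called higher. This was Siglecf, at a log2 fold change of 2.76 on levels of 0.218 to 0.653 CPM in OCsCtr and 2.52 to 3.28 in OCsEo. In OCsEoS against OCsEo 1 of the 4 was called lower, beside 0.307% of all genes. In OCsEoS against OCsCtr 1 of the 4 was called lower, beside 4.11%. The granule markers Epx, Prg3, Ear1 and Ear6 were at 0 in all OCsEoS libraries and at most 0.771 CPM elsewhere. Another, Prg2, was at 3.85 to 7.83 CPM in OCsCtr, 4.21 to 7.25 in OCsEo and 0 to 1.79 in OCsEoS. The 8 neutrophil markers summed to 275 to 398 CPM in OCsCtr, 391.6 to 547 in OCsEo and 315 to 375 in OCsEoS. Of the 8, 2 (Camp and Elane) were called higher in OCsEo than in OCsCtr, beside 3.27% of all genes, and 2 (Ltf and Mpo) lower in OCsEoS than in OCsEo, beside 0.307%. All 8 had a positive log2 fold change in the former comparison and a negative one in the latter, the directions of mt-Nd6. T cell and B cell markers stayed at or under 10.5 CPM in sum. The part of these cells in the mt-Nd6 result was not tested.

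**Figure D3:**
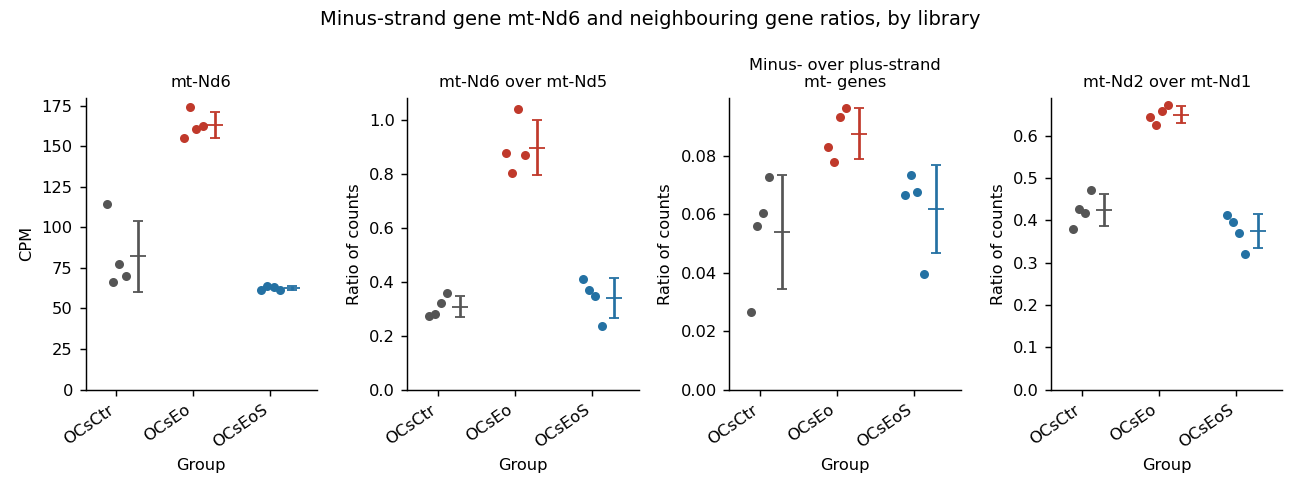
mt-Nd6 in CPM, and the ratios of counts of mt-Nd6 to mt-Nd5, of all minus-strand genes (mt-Nd6 included) to all plus-strand genes, and of mt-Nd2 to mt-Nd1, with 1 point for each library and the mean ± SD beside the points (n = 4). In each panel the 4 OCsEo points lie above all points of OCsCtr and OCsEoS.

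Over all mitochondrial genes, the balance of counts between minus- and plus-strand genes separated OCsEo from the other groups, but only with mt-Nd6 in the minus-strand sum. It is thus no evidence beside that gene. Strand here is that of the annotation, since the kit was not stated to mark the strand of reads. The ratio of minus- to plus-strand counts was 0.0267, 0.0559, 0.0605 and 0.0725 in OCsCtr, 0.0829, 0.0778, 0.0931 and 0.0962 in OCsEo, and 0.0664, 0.0734, 0.0675 and 0.0396 in OCsEoS. All OCsEo libraries were above the others, and the lowest ratios belonged to OCsCtr 1 and OCsEoS 4. The mean log2 ratio of OCsEo exceeded that of OCsCtr by 0.79 (exact two-sided permutation test, p = 0.0286, the smallest these groups allow), and by 0.48 without OCsCtr 1 (p = 0.0286, exact). OCsEoS differed from OCsCtr by 0.25 (p = 0.514, exact) and from OCsEo by -0.54 (p = 0.0286, exact), which was -0.34 without OCsEoS 4 (p = 0.0571, exact). With the genes that have a copy on chromosome 1 left out, the OCsEo difference was 0.62 (p = 0.0571, exact). Without mt-Nd6, which was tried once the data had been seen, the ratio was 0.0182, 0.0450, 0.0487 and 0.0569 in OCsCtr, 0.0506, 0.0462, 0.0601 and 0.0637 in OCsEo, and 0.0534, 0.0599, 0.0568 and 0.0324 in OCsEoS. The 3 groups then overlapped, and the differences were 0.49 for OCsEo against OCsCtr (p = 0.171, exact) and -0.15 for OCsEoS against OCsEo (p = 0.629, exact).

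With all libraries in the fit, none of the 3 minus-strand tRNAs tested was called in OCsEo, and 1 was called in OCsEoS. Their sequences at mt-Tp (chrM:15356-15422), mt-Tc (chrM:5192-5257) and mt-Tn (chrM:5089-5159), all on the minus strand, are given in the direction of the gene with the anticodon in capitals, because they are the only tRNA genes counted at more than a few CPM.
mt-Tp: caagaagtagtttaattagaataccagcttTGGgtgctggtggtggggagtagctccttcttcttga
mt-Tc: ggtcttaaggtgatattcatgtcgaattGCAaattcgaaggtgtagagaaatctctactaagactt
mt-Tn: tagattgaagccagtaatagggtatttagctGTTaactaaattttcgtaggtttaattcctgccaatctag
mt-Tc was at 15.5, 16.6, 24.8 and 20.8 CPM in OCsCtr, 19.5, 27.2, 28.8 and 26.9 in OCsEo, and 25.5, 29.9, 27.2 and 27.7 in OCsEoS. It was called higher in OCsEoS, at a log2 fold change of 0.50 (SE 0.141, adjusted p = 0.0129, edgeR), where 5 of the 20 mitochondrial genes were called beside 7.73% of all genes, and where 3.63% of all genes were called higher. Its OCsEoS libraries lay above all OCsCtr libraries, as in 12.6% of all genes. In OCsEo the value was 0.40 (adjusted p = 0.0576, edgeR), and the groups overlapped. There mt-Tc was called higher without OCsCtr 3 (0.54, adjusted p = 0.0138, edgeR) or OCsEo 1 (0.51, adjusted p = 0.0165, edgeR). The OCsEoS call stood close to the fold threshold, and it was lost without OCsCtr 1 (0.40), OCsCtr 2 (0.44), OCsEo 1 (0.49) or OCsEoS 2 (0.47). For mt-Tn the log2 fold changes were 0.21 and 0.38, and mt-Tp stayed at -0.07 in both comparisons.

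Several plus-strand genes were called lower in each stimulated group, and a single library, OCsCtr 1, carried a large part of this. Of the 16 plus-strand genes tested, 7 were called lower in OCsEo against OCsCtr, with 2.61% of all genes called lower, and 14 of 16 had a negative log2 fold change, as had 50.9% of all genes. In OCsEoS against OCsCtr 4 of 16 were called lower, with 4.11% of all genes called lower, and 14 of 16 were below 0, as were 50.6% of all genes. Groups without overlap were found for 4 of the 16 in OCsEo (mt-Co2, mt-Atp6, mt-Nd3 and mt-Nd4l, all lower), beside 10.9% of all genes, and for 2 of the 16 in OCsEoS (mt-Atp6 and mt-Co3, both lower), beside 13.1%. Both comparisons use the same OCsCtr libraries. The median log2 fold change of the 20 mitochondrial genes was -0.55 in OCsEo and -0.38 in OCsEoS, beside -0.01 over all genes in each, and without OCsCtr 1 it was -0.17 and -0.08. Without that library 3 plus-strand genes, mt-Co3, mt-Atp6 and mt-Nd3, were called lower in OCsEo and 2, mt-Co3 and mt-Atp6, in OCsEoS. Without OCsEoS 4 instead, the median in OCsEoS against OCsCtr was -0.53. With OCsCtr 1 and OCsEoS 4 both left out, tried once the data had been seen, the median was -0.17 in OCsEo and -0.17 in OCsEoS. DESeq2 on all libraries called 4 lower in OCsEo and 1 in OCsEoS.

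**Figure D4:**
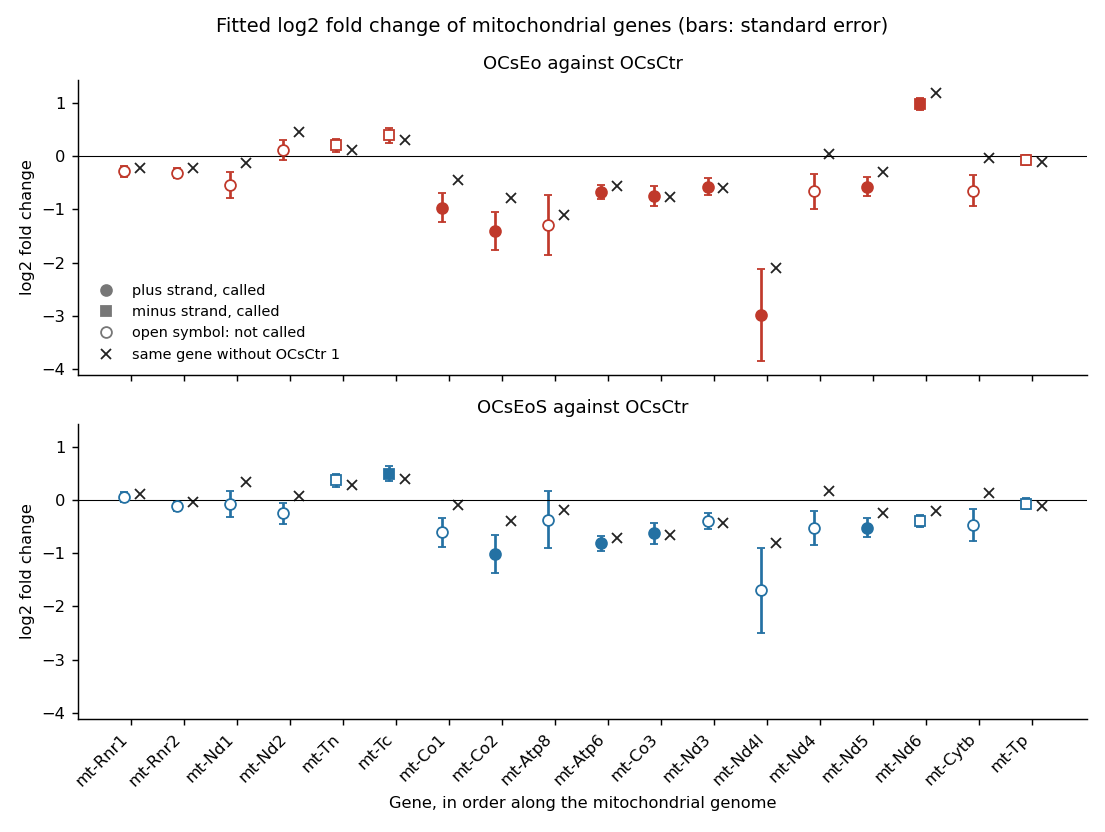
Fitted log2 fold change with its standard error of 18 mitochondrial genes against OCsCtr, in order along the genome (mt-Tl1 and mt-Tw, with few counts, are not drawn). Squares are minus-strand and circles plus-strand genes, filled symbols are called, and crosses give the value without OCsCtr 1, which moves mt-Cytb from -0.65 to -0.03 in OCsEo while mt-Nd6 goes from 0.99 to 1.19.

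Among the complex IV subunits, the core of cytochrome c oxidase, all 3 were called lower in OCsEo, beside 2.61% of all genes. In OCsEoS 2 of 3 were called lower, beside 4.11%. All 3 have a near-identical copy on chromosome 1, for mt-Co1 over part of the gene, which is taken up after the comparisons. mt-Co1 was at 5201, 2084, 2214 and 1393 CPM in OCsCtr, 1337, 1419, 1384 and 1440 in OCsEo, and 1478, 1314, 1768 and 2595 in OCsEoS. The lowest OCsCtr library lay within the OCsEo range. Its log2 fold change was -0.96 (SE 0.266, adjusted p = 0.0153, edgeR) in OCsEo and -0.61 (adjusted p = 0.109, edgeR) in OCsEoS. Without OCsCtr 1 the values were -0.44 and -0.09, with no call. In OCsEoS mt-Co1 was called lower without OCsEoS 4 (-0.83, adjusted p = 0.0363, edgeR) or OCsCtr 4 (-0.82, adjusted p = 0.0192, edgeR). With no filter on low counts it was called lower there as well (-0.61).

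mt-Co2, which takes up electrons from cytochrome c, was at 38.2, 12.8, 14.3 and 8.92 CPM in OCsCtr, 5.35, 7.07, 6.51 and 8.87 in OCsEo, and 6.26, 5.90, 8.49 and 16.002 in OCsEoS. The OCsEo libraries were below all OCsCtr libraries by a narrow gap. It fell by 1.41 (SE 0.359, adjusted p = 0.00911, edgeR) and 1.01 (SE 0.354, adjusted p = 0.0453, edgeR) on the log2 scale. Without OCsCtr 1 these became -0.79 and -0.39 with no call, and the OCsEoS call was also lost without OCsEo 2 (-1.01), OCsEoS 1 (-0.86), OCsEoS 2 (-0.84) or OCsEoS 3 (-0.97). With OCsCtr 1 and OCsEoS 4 both left out, an alternative tried once the data had been seen, mt-Co2 was called lower in both groups. The values were -0.79 (adjusted p = 0.0106, edgeR) in OCsEo and -0.81 (adjusted p = 0.0164, edgeR) in OCsEoS.

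mt-Co3, a structural subunit, was at 118, 141, 136 and 93.7 CPM in OCsCtr, 49.0, 120, 59.2 and 61.9 in OCsEo, and 91.4, 69.1, 75.5 and 81.3 in OCsEoS. OCsEo 2 lay among the controls, and all OCsEoS libraries were below them. The log2 fold changes were -0.75 (SE 0.194, adjusted p = 0.0103, edgeR) and -0.62 (SE 0.193, adjusted p = 0.0244, edgeR). The OCsEoS call was lost without OCsCtr 2 (-0.54), OCsCtr 3 (-0.56), OCsEoS 2 (-0.56) or OCsEoS 3 (-0.59).

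For the ATP synthase, mt-Atp6, its proton channel subunit, was called lower in both stimulated groups under every refit run. Its CPM were 53.1, 39.6, 48.4 and 32.8 in OCsCtr, 27.4, 31.8, 23.6 and 26.1 in OCsEo, and 21.9, 24.9, 22.6 and 29.6 in OCsEoS. All 8 stimulated libraries were below all 4 controls. It fell by 0.67 (SE 0.136, adjusted p = 0.00171, edgeR) in OCsEo and by 0.81 (SE 0.136, adjusted p = 0.000254, edgeR) in OCsEoS on the log2 scale. Over the 22 refits the values stayed between -0.79 and -0.53 and between -0.93 and -0.65. mt-Atp8, which overlaps mt-Atp6 by 43 bases, held 10 to 52 counts per library. Its log2 fold changes of -1.29 (adjusted p = 0.123, edgeR) and -0.36 were not called. With a filter of at least 10 counts in every library, mt-Atp8 was called lower in OCsEo (-1.29, adjusted p = 0.0385, edgeR). The last 60 bases of mt-Atp8 (chrM:7910-7969, plus strand, GENCODE vM21), with the bases shared with mt-Atp6 in capitals, show that reads there belong to either gene.
mt-Atp8: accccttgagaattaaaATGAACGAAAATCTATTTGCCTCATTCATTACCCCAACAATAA

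Complex I is built with 7 subunits from mitochondrial DNA, and apart from mt-Nd6 they were called lower or did not pass. mt-Nd5, a proton-pumping subunit, was at 419, 237, 242 and 197 CPM in OCsCtr, 177, 217, 155 and 188 in OCsEo, and 149, 173, 183 and 259 in OCsEoS. The groups overlapped. Its log2 fold changes of -0.57 (SE 0.181, adjusted p = 0.0337, edgeR) and -0.52 (SE 0.181, adjusted p = 0.0455, edgeR) were called. The calls were lost under 7 and 11 of 22 alternatives, among them the one without OCsCtr 1 (-0.29 and -0.25). In OCsEo the loss also came without OCsEo 1 (-0.55), OCsEo 3 (-0.50) or OCsEo 4 (-0.58), and in OCsEoS without OCsEo 1 (-0.53), OCsEo 4 (-0.52), OCsEoS 1 (-0.41), OCsEoS 2 (-0.46) or OCsEoS 3 (-0.49).

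mt-Nd3 was at 10.8, 12.3, 14.0 and 8.55 CPM in OCsCtr, 7.05, 7.55, 8.43 and 7.79 in OCsEo, and 7.65, 8.10, 9.97 and 9.12 in OCsEoS. The OCsEo libraries were below all controls. The log2 fold change of -0.57 (SE 0.155, adjusted p = 0.0145, edgeR) was called in OCsEo and lost without OCsCtr 2 (-0.53) or OCsCtr 3 (-0.45). That of -0.39 in OCsEoS was not called. Without OCsCtr 4 mt-Nd3 was called lower in OCsEoS (-0.51, adjusted p = 0.0246, edgeR). mt-Nd4l had 14 to 63 counts in OCsCtr, 1 to 8 in OCsEo and 3 to 18 in OCsEoS. Its value of -2.99 (SE 0.869, adjusted p = 0.0211, edgeR) in OCsEo rests on these few counts and was lost without OCsCtr 1 (-2.10), OCsEo 1 (-2.70) or OCsEo 4 (-2.73). In OCsEoS its value was -1.70 (adjusted p = 0.144, edgeR).

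mt-Nd1, mt-Nd2 and mt-Nd4 passed in neither comparison of the fit with all libraries and the filter on low counts. In OCsEo mt-Nd1 was called lower without OCsCtr 4 (-0.73, adjusted p = 0.0469, edgeR) and without the filter (-0.54). Without the filter mt-Nd4 was called lower in OCsEo (-0.66) and in OCsEoS (-0.53). mt-Nd1 was at 841 to 2562 CPM in OCsCtr, 947 to 1160 in OCsEo and 950 to 2186 in OCsEoS, with log2 fold changes of -0.54 and -0.07. mt-Nd4 was at 152 to 695 CPM in OCsCtr, 191 to 231 in OCsEo and 159 to 358 in OCsEoS, with values of -0.66 and -0.52. mt-Nd2, at 396 to 973, 622 to 726 and 393 to 701 CPM, was the only plus-strand protein gene with a positive value in OCsEo, 0.12 (SE 0.197, adjusted p = 0.744, edgeR), beside -0.25 in OCsEoS. Set against its upstream neighbour, it was separated between the groups. The ratio of mt-Nd2 to mt-Nd1 counts was 0.380, 0.426, 0.418 and 0.471 in OCsCtr, 0.644, 0.625, 0.657 and 0.672 in OCsEo, and 0.414, 0.397, 0.369 and 0.321 in OCsEoS. All OCsEo libraries were above all others. This ratio was chosen after its values were seen, so it is given as a description without a test. With OCsCtr 1 and OCsEoS 4 both left out, mt-Nd2 was called lower in OCsEoS than in OCsEo (-0.57, adjusted p = 0.00739, edgeR), beside -0.37 (adjusted p = 0.513) with all libraries.

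mt-Cytb was at 2445, 834, 899 and 613 CPM in OCsCtr, 723, 847, 722 and 766 in OCsEo, and 658, 648, 826 and 1334 in OCsEoS. Apart from OCsCtr 1 and OCsEoS 4, all libraries lay between 613 and 899 CPM. Its log2 fold changes of -0.65 (SE 0.295, adjusted p = 0.145, edgeR) and -0.47 were not called. In OCsEo mt-Cytb was called lower without OCsCtr 4 (-0.87, adjusted p = 0.0422, edgeR) and with no filter on low counts (-0.65). Neither rRNA, on which the mitochondrial ribosome is built, was called. mt-Rnr1 was at 468, 409, 447 and 340 CPM in OCsCtr, 326, 343, 348 and 349 in OCsEo, and 379, 385, 460 and 523 in OCsEoS. Its log2 fold changes were -0.28 (SE 0.0954, adjusted p = 0.0452, edgeR) and 0.07, and those of mt-Rnr2 were -0.31 (SE 0.0887, adjusted p = 0.0189, edgeR) and -0.11, all within the fold threshold.

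Part of the mitochondrial genome has a near-identical copy in the nucleus, and most of the lower calls fell on it. Alignment of the mitochondrial genes to the GENCODE vM21 transcripts placed 7 annotated pseudogenes side by side on chromosome 1 (GRCm38 chr1:24611535-24616197, minus strand), each at least 99.7% identical to a mitochondrial gene. They were Gm29216 for mt-Co1, Gm28661 for mt-Co2, Gm10925 for mt-Atp6, Gm28437 for mt-Co3, Gm28438 for mt-Nd3, Gm10222 for mt-Nd4l and Gm28439 for mt-Nd4. The matches covered 483 of the 1545 bases of mt-Co1 and 876 of the 1378 of mt-Nd4, and nearly the whole gene for the other 5. In 5 of the 7 pairs no base of the match differed. The 2 bases that did, numbered from the first base of the mitochondrial gene, were T3C between mt-Nd3 and Gm28438 and A1066T between mt-Co1 and Gm29216. The sequences around them, at chrM:9459-9485 and chrM:6390-6417, carry the differing base in capitals and show how little a short read has to tell the pair apart.
mt-Nd3: atTaacctgtacactgttatcttcatt
Gm28438: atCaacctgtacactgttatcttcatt
mt-Co1: ggaAttgttttatccaactcatcccttg
Gm29216: ggaTttgttttatccaactcatcccttg

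On chromosome 2, Gm13340 matched the whole of mt-Co1, Gm13341 the whole of mt-Co2, and Gm13339 matched 510 bases of mt-Nd2. Gm4076 on chromosome 13 matched 954 bases of mt-Nd5. These matches were 95.2% to 97.6% identical, and each of these genes held at most 47 counts in a library. Only chromosome 1 copies were left out or summed in the alternatives. The 5 protein genes with a chromosome 1 copy over nearly their whole length stood at 3.05 to 156 CPM per kb in OCsCtr. How reads that match more than 1 place were counted is not given in the sources used here, so the levels and calls of these genes are uncertain. The copy held a mean of 38.7% of the counts of the pair in OCsCtr for mt-Co2, 52.5% for mt-Co3, 62.9% for mt-Atp6 and 77.3% for mt-Nd3, but 0.188% for mt-Co1 and 0.556% for mt-Nd4. Of the 7 genes with a chromosome 1 copy, 6 had a lower call in OCsEo, beside 2.61% of all genes. In OCsEoS 3 of the 7 had one, beside 4.11%. Genes with such a copy made up 6 of the 7 lower calls in OCsEo and 3 of the 4 in OCsEoS. The remaining one was mt-Nd5 in each, for which no chromosome 1 copy was found. Of the 7 pseudogenes on chromosome 1, Gm28437, Gm28661 and Gm29216 were called lower in OCsEo, beside the same 2.61% of all genes. Only Gm10925 was called lower in OCsEoS, beside 4.11%. Gm28437, the copy of mt-Co3, was at 131, 147, 156 and 105 CPM in OCsCtr, 72.0, 80.8, 80.1 and 83.4 in OCsEo, and 96.5, 104, 108 and 96.9 in OCsEoS, with a log2 fold change of -0.77 (SE 0.0944, adjusted p = 1.67e-05, edgeR) in OCsEo. Gm10925, the copy of mt-Atp6, was at -0.45 (adjusted p = 0.00998, edgeR) in OCsEo and -0.56 (adjusted p = 0.00165, edgeR) in OCsEoS. Gm28438, the copy of mt-Nd3, stood at -0.08 and 0.05.

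**Figure D5:**
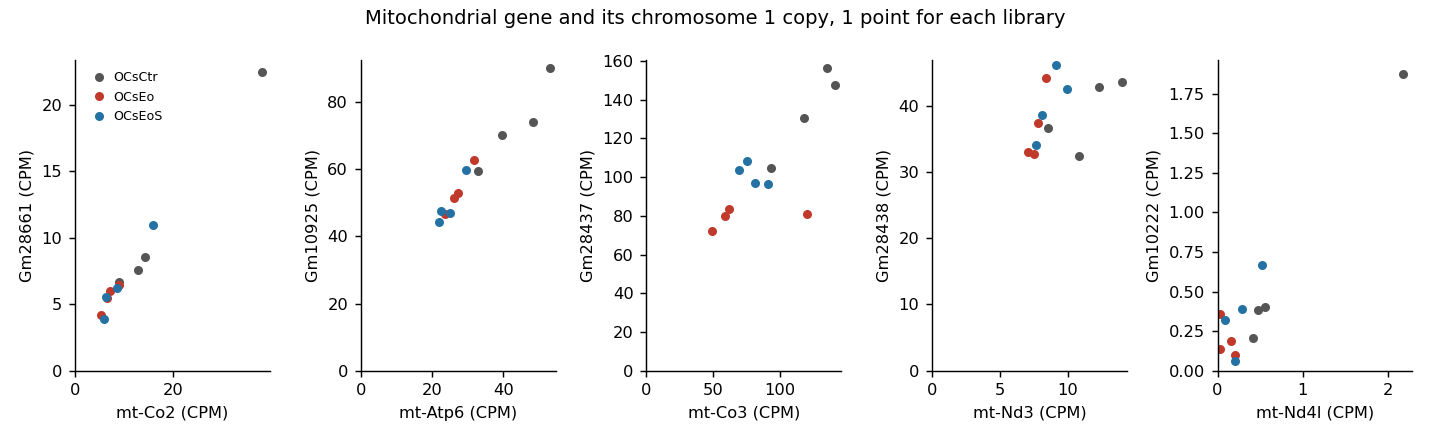
CPM of 5 mitochondrial genes (horizontal) and of their copies on chromosome 1 (vertical), with 1 point for each library. For mt-Co2 and mt-Atp6 the gene and its copy rise together across libraries, and OCsEo 2 has mt-Co3 at 120 CPM beside Gm28437 at 80.8 CPM.

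An alternative chosen after seeing the data summed the counts of each gene with those of its chromosome 1 copy. OCsEo then had 6 lower calls among the mitochondrial genes and OCsEoS 3. In that fit, 800 of 13674 genes were called in either direction in OCsEo and 1056 in OCsEoS. mt-Nd3 lost its call in OCsEo (-0.18, adjusted p = 0.323, edgeR) and mt-Co2 in OCsEoS (-0.91, adjusted p = 0.0549, edgeR), while mt-Atp6 kept it at -0.53 and -0.65.

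The nuclear genes that copy and process mitochondrial DNA and its RNA, or regulate them, had a call each time in a single gene. Of 47 such genes listed, 44 were tested, and 1 was called in each comparison with OCsCtr, at a lower level, beside lower calls for 2.61% of all genes in OCsEo and 4.11% in OCsEoS. The medians were -0.05 in OCsEo and 0.03 in OCsEoS. The called gene was Ppargc1b, the coactivator of mitochondrial biogenesis. It was at 23.3, 21.7, 22.1 and 24.2 CPM in OCsCtr, 15.9, 15.0, 12.6 and 15.7 in OCsEo, and 16.7, 18.02, 14.7 and 12.2 in OCsEoS. All stimulated libraries were below all controls, and the log2 fold changes were -0.63 (SE 0.124, adjusted p = 0.00147, edgeR) and -0.57 (SE 0.124, adjusted p = 0.00218, edgeR). The OCsEoS call of Ppargc1b was lost without OCsEoS 4 (-0.47, past the adjusted p but within the fold threshold), while its relative Ppargc1a was at 0 in 11 of 12 libraries.

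Polrmt, the mitochondrial RNA polymerase, stood at log2 fold changes of 0.01 in OCsEo and -0.13 in OCsEoS, and its partners Tfam and Tfb2m at 0.17 and 0.23 and at -0.01 and 0.01. None of these 3 was called. Lrpprc, which stabilises mitochondrial messages, was at 113 to 123 CPM in OCsCtr, 90.0 to 105 in OCsEo and 91.3 to 105 in OCsEoS. Its values of -0.24 (adjusted p = 0.0143, edgeR) and -0.27 (adjusted p = 0.00506, edgeR) stayed within the fold threshold.

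The nuclear partners of these messages in the same complexes were counted in the same way. Of 71 nuclear subunits of complexes I, III, IV and V tested, 1 was called in each comparison with OCsCtr, at a higher level, where 3.27% and 3.63% of all genes were called higher and 5.88% and 7.73% in either direction. The medians were -0.08 in both. By the adjusted p alone, 11 of them were lower in OCsEo, beside 8.35% of all genes, and 13 in OCsEoS, beside 11.2%. The one called was Ndufa12, named after its values were seen, at 0.66 (adjusted p = 0.0273, edgeR) and 0.60 (adjusted p = 0.0366, edgeR), and DESeq2 called it in neither. Of the 76 mitochondrial ribosomal proteins tested 0 were called by edgeR or by DESeq2. By edgeR 5.88% of all genes were called in OCsEo and 7.73% in OCsEoS. An unadjusted p under 0.05 was found by edgeR for 16 of the 76 in OCsEo and 34 in OCsEoS (19 and 36 by DESeq2). The share of all genes with such a p was not counted, so these numbers stand without a reference. By the adjusted p alone 3 of the 76 were higher in OCsEo, beside 9.06% of all genes, and 22 in OCsEoS, beside 11.8%. Their medians were 0.07 and 0.14.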

How the data were processed

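Raw counts per gene from 12 libraries were analysed. The authors cleaned reads with fastp, aligned them with HISAT2 2.0.5 to GRCm38/mm10 and made the deposited counts with featureCounts; the RNA selection, the strand setting and the treatment of reads with several matches are not given in the sources used here. The columns were matched to 3 groups of 4 by their labels. Genes were filtered with filterByExpr (minimum count 10), which left 13681, and scaled by TMM (factors 0.968 to 1.03). One fit of all libraries was tested with edgeR 4.0.16 in R 4.3.3. Calls needed an adjusted p (Benjamini-Hochberg) below 0.05 and a log2 fold change beyond 0.5 in either direction. Per-library values were compared by exact permutation tests. Copies were sought with blastn 2.17.0 among GENCODE vM21 transcripts (at least 95% identity over 100 bases); no genome was searched. p-values measure the spread between these samples. Pairs of libraries of a group differed beyond counting noise (chi-square per degree of freedom 9.79 to 34.4 over 18 pairs). On simulated counts for OCsEo against OCsCtr, 127 of 130 changed genes with a mean of at least 100 counts were recovered, and 138 of all 200, with 7 false calls. The genes named are all mitochondrial genes that passed the filter or code for protein or rRNA and the nuclear copies found. Also named are Ppargc1b and 5 other regulators, and list members called where few. The members, lists and tests were chosen with earlier results of these data known. Alternatives were DESeq2 1.42.0, other scalings and filters, the replicate number as a block, each library left out in turn, and others named with their values.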

Additional observations from a re-analysis of the deposited data

Results flagged for a closer look

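In unstimulated osteoclasts, a single library, OCsCtr 1, lay far from the other 3 of its group for mt-Nd4l (2.18 CPM beside 0.415 to 0.560), mt-Nd4 (695 CPM beside 152 to 229) and mt-Cytb (2445 CPM beside 613 to 899). In OCsEo, library 2 lay far above the others for mt-Nd1 (1160 CPM beside 947 to 970) and mt-Nd2 (726 CPM beside 622 to 637). In all, 5 of 75 sets of 4 libraries were marked in this way, and chance marks about 1 in 20.

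The level of mt-Nd6 differed between the group given eosinophils and the group given the supernatant. The log2 difference was -1.39 for OCsEoS less OCsEo (edgeR, adjusted p = 3.09e-06). The ratio of minus- to plus-strand counts differed by -0.54 on the log2 scale (exact permutation test, p = 0.0286), but mt-Nd6 is part of the minus-strand sum, and without it the difference was -0.15 (p = 0.629, exact permutation test).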

How the results depend on the processing

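mt-Nd6 was called between the stimulated groups, and in OCsEo against OCsCtr, under all 22 refits run, but not with a fold threshold of 1 in the latter. Calls in OCsEo against OCsCtr, 8 with all data, were 5 (DESeq2, all libraries), 4 (DESeq2, 2 groups), 5 (OCsCtr 1 and OCsEoS 4 left out) and 2 (fold threshold of 1), and 4 (without OCsCtr 1) to 10 when 1 library was left out. Calls in OCsEoS against OCsCtr, 5 with all data, were 2 (DESeq2, all libraries), 3 (DESeq2, 2 groups), 3 (edgeR, 2 groups), 2 (OCsCtr 1 and OCsEoS 4 left out) and 1 (fold threshold of 1), and 1 (without OCsEoS 2) to 7 when 1 library was left out, with 2 without OCsCtr 1 or OCsEoS 3 and 3 without OCsCtr 2, OCsEo 1 or OCsEoS 1. OCsEoS against OCsEo gave 1 call, and 2 with OCsCtr 1 and OCsEoS 4 left out. The nuclear call in OCsEoS ranged from 0 (without OCsEoS 4) to 1 when 1 library was left out. The cause of these changes was not tested.

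The replicate number was not used as a pairing, since correlations of same-numbered deviations were weak (-0.0435 to 0.0944 over 12 pairs); 9 of the 12 were nevertheless best with their own number, a hint from the data, not the design, that the numbers may not be arbitrary. With the replicate number as a block, calls in OCsEoS against OCsCtr went from 5 to 3, those in OCsEo from 8 to 7, and the strand ratios of 0.79 and -0.54 had an exact sign-flip p of 0.125, the smallest 4 pairs allow.

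The strand ratio of OCsEo against OCsCtr lost its call with genes that have a chromosome 1 copy left out (0.62). The call was also lost without mt-Nd6 (0.49, exact permutation p = 0.171) and as a difference of medians (0.59). For the copies and the medians the exact permutation p was 0.0571. Without 1 library the strand ratio ranged from 0.48 to 0.96. Without any 1 of the OCsEo libraries the strand ratio stood at 0.74 to 0.84, with an exact permutation p of 0.0571. That of OCsEoS against OCsEo was -0.15 without mt-Nd6, -0.39 as a difference of medians and -0.34 with OCsCtr 1 and OCsEoS 4 left out, and ranged from -0.63 to -0.34 without 1 library, with an exact permutation p of 0.0571 without any 1 of the OCsEo libraries or OCsEoS 4. That of OCsEoS against OCsCtr, 0.25 and not called, was -0.0488 over protein genes alone and ranged from -0.060 (without OCsCtr 1) to 0.45 without 1 library. The share of counts ranged without 1 library from -0.66 to -0.14 in OCsEo, passing the test without OCsCtr 4 (-0.66), from -0.48 to 0.041 (without OCsCtr 1) in OCsEoS against OCsCtr, and from -0.0050 (without OCsEoS 4) to 0.27 in OCsEoS against OCsEo, where it was also -0.0050 with OCsCtr 1 and OCsEoS 4 left out. The direction of a single gene called in neither fit was not read. An adjusted p that DESeq2 gave as missing, as for mt-Nd4l, was left out. Few counts limit what can be read from most tRNA genes, mt-Nd4l and mt-Atp8.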
